A study of Mus musculus with 2 samples.

Results

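Heat shock proteins and their DnaJ partners, the core of the protein folding machinery, were followed across the cell types captured after mild traumatic brain injury (mTBI). Members were taken by symbol, as all genes of the families Hspa, Hspb, Hsp90, Dnaja, Dnajb and Dnajc together with Hspd1, Hspe1 and Hsph1, which gave 72 of the 31053 genes in the matrices. They comprise 11 Hsp70 genes, 3 Hsp110 genes, 3 Hsp90 genes, 2 mitochondrial chaperonin genes, 8 small heat shock proteins, 4 DnaJ genes of type A, 13 of type B and 28 of type C. At least 20 UMIs (unique molecular identifiers, 1 per captured transcript) were counted for 60 of them over the labels used. Of the other 12, Dnajb8 and Hspb9 had 0 UMIs and the rest had 1 to 18, among them Hspb1, the best known small heat shock protein, with 6 UMIs.

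Hsp70 proteins bind unfolded stretches of other proteins and release them in a cycle driven by ATP. DnaJ proteins, also called J proteins or Hsp40s, deliver clients to Hsp70 and start ATP hydrolysis, and Hsp110 proteins act as nucleotide exchange factors that reset the cycle. Hsp90 matures signalling proteins and receptors, the chaperonin Hspd1 with its lid Hspe1 folds proteins inside mitochondria, and small heat shock proteins hold unfolded proteins in solution. Some members answer heat and proteotoxic stress through the factor Hsf1, some answer stress of the endoplasmic reticulum (ER), and many are expressed constitutively.

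All nuclei came from mice of the genotype Atf3-CreER:+/wt; SUN-SfGFP:+/wt, over 7 weeks old, that received mTBI, tamoxifen at 4 and 5 days after injury, and were sampled at 7 days. GFP+ nuclei were sorted from the ipsilateral cortex, so the reporter marks cells in which Atf3 drove the recombinase around the time of tamoxifen, and uninjured cells were not analysed here. There were 2 libraries, each a pool of 4 animals, 1 from males and 1 from females, and the female library is so named after its title and the deposited table, although its sex field reads male. The male library held 11007366 UMIs in called barcodes and the female library 23202343, so that sex and depth cannot be told apart, and 1 called barcode occurred in both.

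Of the 8171 nuclei with a deposited label, 7517 fell into the 16 labels used, which were 6 excitatory and 3 inhibitory neuronal labels (2499 nuclei), microglia, astrocytes, oligodendrocytes, VLMC (vascular leptomeningeal cells), SMC-Peri (smooth muscle cells and pericytes), endothelial cells and Unknown. Levels are CPM, the UMIs of a gene per 1000000 UMIs of the summed nuclei of a label, and pairs of values are the male and then the female library. They include RNA from introns and come from 3′ ends, so levels are compared between labels and not between genes. A sum cannot tell fewer nuclei with a transcript from less of it per nucleus. Markers bore out the labels of astrocytes and microglia. The summed level of 6 astrocyte markers was 14740 and 11971 CPM in astrocytes. That of 10 microglia markers was 5774 and 5875 CPM in microglia. The marker lists held no gene particular to Pvalb, Sst, Vip or L6 IT, so those names were not checked and are used as deposited. The name SMC-Peri was not borne out, since of 4 mural markers Rgs5 and Kcnj8 were at 0 in those nuclei and the summed level was 32 and 43 CPM, against 43 and 95 CPM in nuclei labelled VLMC. Microglia markers reached 298 to 1785 CPM in the neuronal labels, and neuron markers 2577 and 1380 CPM in microglia, so some RNA of other cells was present in each label.

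Hspa1a, Hspa1b and Dnajb1, which heat and proteotoxic stress induce, were counted at few UMIs. Hspa1a (ENSMUSG00000091971, chromosome 17, 34969190–34972156, minus strand, GRCm38) and Hspa1b (ENSMUSG00000090877, chromosome 17, 34956436–34959238, minus strand), the stress-inducible Hsp70 genes, had 26 and 22 UMIs over all labels used. They are near-identical copies, so reads may have been split between them or lost. In the 2 libraries together, the microglia, with 4028 nuclei, had 1 UMI of Hspa1a and 1 of Hspa1b, and the Unknown nuclei 0 and 1. Hspa1a was highest in L6 IT neurons, at 20.1 and 9.74 CPM, from 4 UMIs in each library (exact Poisson 95% intervals of 5.47 to 51.4 and 2.65 to 24.9 CPM, for counting error only). These counts are too few for an order among labels. Dnajb1, the J protein that works with Hspa1a, reached 0 to 11.3 CPM in the neuronal labels and 9.22 and 5.84 CPM in microglia. Empty barcodes, those with at most 100 UMIs, hold free RNA of the suspension and had 29.0 and 6.52 CPM. None of the 3 genes could be tested, because all fell under the filter on low counts.

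The constitutive members Hspa8, Hsp90ab1 and Dnaja1 were present in each of the 15 labels with both libraries. The 5 endothelial nuclei held 0 UMIs of Hspa8 and 0 of Dnaja1. Hspa8, the housekeeping Hsp70 (ENSMUSG00000015656, chromosome 9, 40800984–40810087, plus strand), ranged over the neuronal labels from 14.3 to 66.4 CPM, with a median of 32.1 CPM. It stood at 29.3 and 29.0 CPM in microglia. Pseudogenes of Hspa8 and of the Hsp90 genes can take or lend reads, so these counts are uncertain. Hsp90ab1, the constitutive cytosolic Hsp90, ranged from 32.5 to 133 CPM over the neuronal labels, and Dnaja1, a cytosolic partner of Hspa8, from 16.2 to 50.8 CPM. The neuronal labels L2/3 IT CTX-2 and L6 IT gave the highest mean level of 7 and 10 of the 60 members, Hspa5, Hspa8, Hsph1 and all 3 Hsp90 genes among them. Other labels matched these counts, with 7 members highest in microglia and 10 each in nuclei labelled SMC-Peri and VLMC. The same count was not made over all genes. Some of these first places rest on few UMIs, such as Hspa1b in L6 IT (4 and 0) and Hspa1l in L2/3 IT CTX-2 (2 and 0). L2/3 IT CTX-2 and L6 IT had the shallowest neuronal nuclei, with medians of 1506 and 1921 UMIs in L2/3 IT CTX-2 and of 1800 and 2708 UMIs in L6 IT. The part of depth in these levels was not tested.

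**Figure D1:**
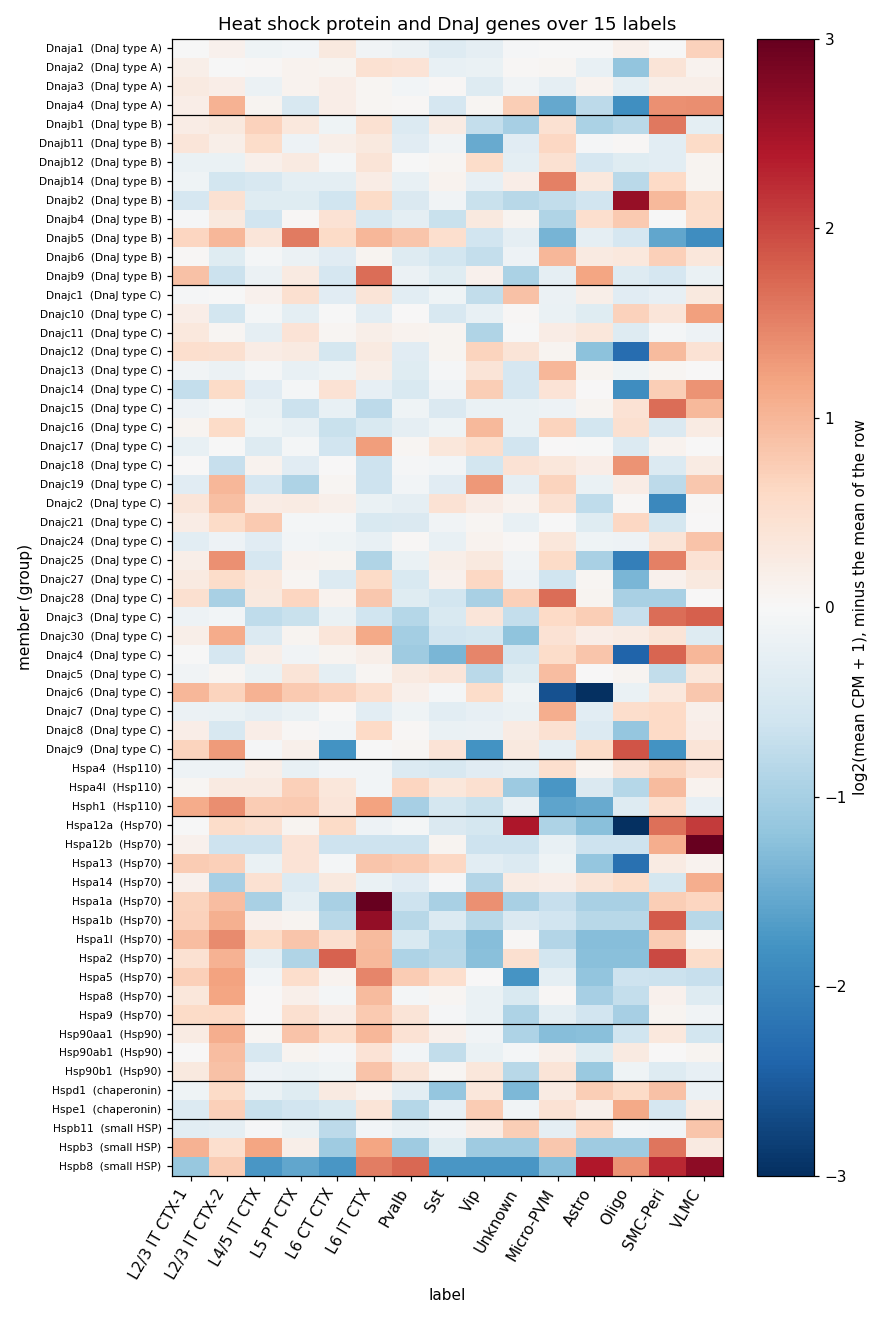
Heat map of the 60 members with at least 20 UMIs (rows, grouped by family) over the 15 labels with both libraries (columns). Colour is log2(mean CPM of the 2 libraries + 1) minus the mean of the row, cut at 3 in either direction. Hspa12a stands out in Unknown and VLMC, Dnajc6 is pale to red in neurons and blue in microglia and astrocytes, and Hspa5 has its lowest mean in Unknown. Rows such as Hspa1a, Hspb8 and Hspa2 rest on few UMIs.

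Tests were made in edgeR on UMIs summed per label and library, with the library as a block, and 45 of the 60 members passed the filter on low counts among 10642 genes. The 27 members that were not tested include Hspa1a, Hspa1b, Hspe1, Hspb8, Dnajb1 and Dnajb9. Since nuclei had been sorted into labels by these same transcripts, the groups compared were not independent of the genes under test. With the library as a block, p-values measure how far differences between labels varied between the 2 pools. They do not measure the spread between animals. A gene was called when its adjusted p (Benjamini-Hochberg over all genes tested) was under 0.05.

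Across the 9 neuronal labels, 8 of the 45 members differed, or 17.8%, where 35.2% of all genes tested did. The 8 were Hsph1, Dnajc1, Dnajb5, Dnajc5, Dnajc6, Hspa5, Hsp90ab1 and Dnajc21. The share of members lay below that of all genes. Among these labels Dnajc5, the cysteine string protein that guards synaptic vesicle fusion, was highest in L5 PT (130 and 116 CPM), Pvalb (112 and 116 CPM) and Sst (137 and 106 CPM) neurons and lowest in Vip neurons (40.6 and 66.7 CPM), with an adjusted p of 0.00343. All these values lay below the 157 and 154 CPM of empty barcodes and the 184 and 174 CPM of microglia. The calls of Hsp90ab1, Dnajc21 and Dnajc6 were each lost under at least 1 alternative, with an adjusted p of up to 0.180, 0.0927 and 0.164.

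The largest difference between classes of neurons was that of Hsph1 (ENSMUSG00000029657, chromosome 5, 149614287–149636376, minus strand), which encodes the Hsp110 protein Hsp105. It was about 3 times as high in excitatory as in inhibitory neurons. In excitatory labels the level of Hsph1 was 174 and 167 CPM in L2/3 IT CTX-1, 262 and 152 CPM in L2/3 IT CTX-2, and 134 CPM in both libraries in L4/5 IT. It was 139.6 and 129.6 CPM in L5 PT, 109.9 and 92.0 CPM in L6 CT, and 211 and 153 CPM in L6 IT. In inhibitory labels it was 36.3 and 40.8 CPM in Pvalb, 60.3 and 47.3 CPM in Sst, and 64.9 and 33.3 CPM in Vip. All 6 inhibitory values lay below all 12 excitatory values, and below the 114 and 79.4 CPM of empty barcodes. The log2 fold change of inhibitory against excitatory labels was −1.61 (SE 0.19, adjusted p = 6.25e-08), with −1.56 and −1.66 for the male and female libraries taken singly, and it was called under all 7 alternatives.

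Of the 60 members, Hsph1 alone had sums that did not overlap between the inhibitory and excitatory labels, while of the 16172 genes with at least 20 UMIs 0.822% lay wholly lower and 0.544% wholly higher in inhibitory labels. Of the 45 members, 3 were called lower in inhibitory neurons (6.67%, where 10.5% of all genes were) and 0 were called higher (where 9.68% of all genes were). In edgeR 0 members were higher at an unadjusted p under 0.05 as well, and DESeq2 called 0. The median log2 fold change of the members was −0.14, against −0.08 for all genes tested. Dnajc6 (ENSMUSG00000028528, chromosome 4, 101496648–101642799, plus strand), the neuronal auxilin that recruits Hsp70 to strip clathrin from vesicles, had a median of 413.9 CPM over the excitatory sums and 253 CPM over the inhibitory sums. Its log2 fold change was −0.47 (SE 0.13, adjusted p = 0.00684), and the call was lost after subtraction of the profile of empty barcodes, at an adjusted p of 0.0744. Dnajc1, an ER membrane J protein, was lower by 0.44 on the log2 scale (a fold change of −0.44, SE 0.11, adjusted p = 0.00311), and without a filter on low counts its adjusted p was 0.0881. Excitatory and inhibitory values of Dnajc1 and Dnajc6 overlapped.

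**Figure D2:**
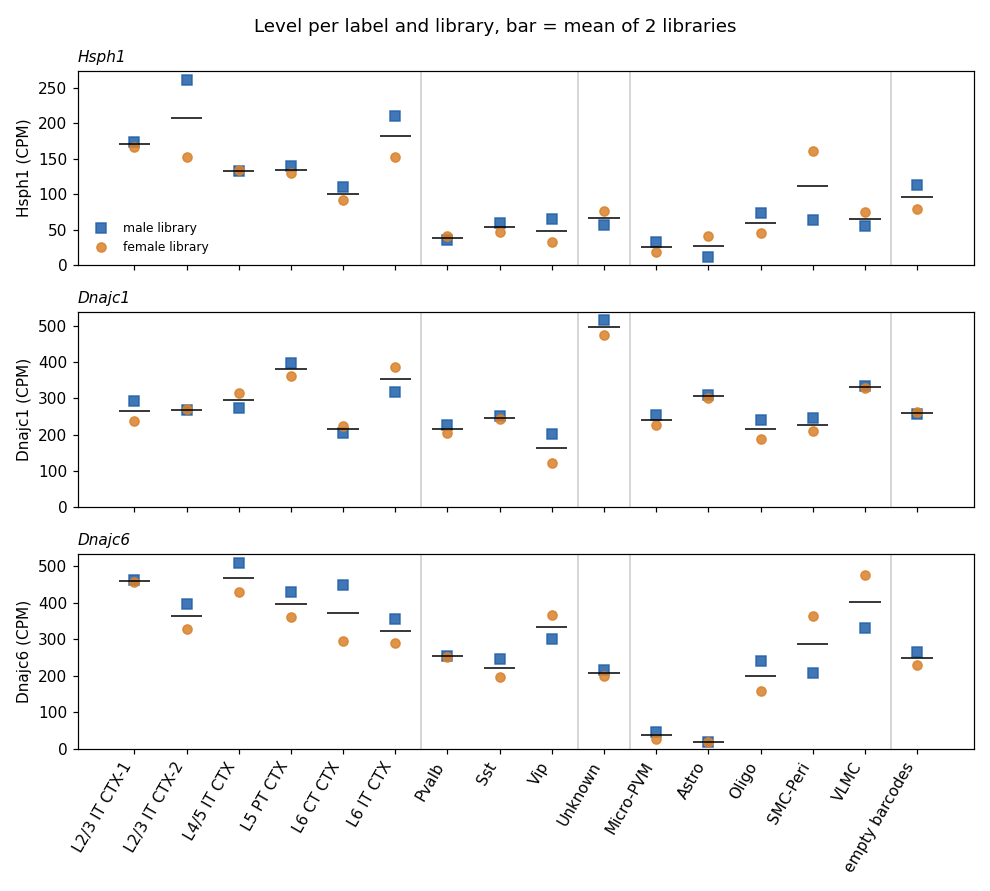
Levels of Hsph1, Dnajc1 and Dnajc6 (vertical axes, CPM) by label (horizontal axis), as squares for the male and circles for the female library, with a bar at their mean. Grey lines part excitatory labels, inhibitory labels, Unknown, non-neuronal labels and empty barcodes. All inhibitory Hsph1 points lie between 33.3 and 64.9 CPM, below the excitatory range of 92.0 to 262 CPM, and Dnajc6 is lowest in microglia and astrocytes.

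The study asked how layer V neurons and layer II/III neurons differ in their response to injury. In tissue it told layers apart by staining, so a label here need not match a layer there. The label L5 PT was set against the mean of L2/3 IT CTX-1 (612 nuclei) and L2/3 IT CTX-2 (154 nuclei), weighted equally. L4/5 IT was left out. Between L5 PT and L2/3 IT neurons few members differed. Of the 45, 2 were called higher in L5 PT (4.44%, where 6.53% of all genes were) and 1 lower (2.22%, where 5.02% were). The median log2 fold change was −0.02 for members and 0.02 for all genes. Dnajb5 (ENSMUSG00000036052, chromosome 4, 42949814–42959425, plus strand), a J protein of nerve and muscle, was at 81.5 and 79.5 CPM in L5 PT, the highest mean of any label. It was at 39.7 and 45.4 CPM in L2/3 IT CTX-1 and at 65.5 and 43.0 CPM in L2/3 IT CTX-2. All L5 PT values of Dnajb5 thus lay above all L2/3 IT values, and the fitted log2 difference was 0.85 (SE 0.22, adjusted p = 0.00857). The share of all genes whose sums lay apart in this way was not counted for this comparison. The closest L2/3 IT value, 65.5 CPM in the male L2/3 IT CTX-2 sum, came from 77 nuclei with 183301 UMIs in all. Empty barcodes held a mean of 58.2 CPM of Dnajb5. Dnajc1 was at 398 and 361 CPM in L5 PT, against 292 and 237 CPM in L2/3 IT CTX-1 and 267 and 269 CPM in L2/3 IT CTX-2, a log2 difference of 0.59 (SE 0.16, adjusted p = 0.00875).

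Dnaja4, a J protein of type A, was lower in L5 PT, at 8.57 and 7.81 CPM, than in L2/3 IT CTX-1 (11.4 and 15.9 CPM) and L2/3 IT CTX-2 (27.3 and 23.4 CPM, from 5 and 6 UMIs). Its log2 fold change was −1.11 (SE 0.36, adjusted p = 0.0389), but the call was lost in 5 of 8 alternatives, with an adjusted p of up to 0.266. Hsp90b1, the ER Hsp90, was not called, at a log2 fold change of −0.67 (SE 0.23) and an adjusted p of 0.0510. Neither were Hspa8 (−0.54, adjusted p = 0.113) and Hspd1 (−0.59, adjusted p = 0.313).

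Among small heat shock proteins, Hspb8, which works with the co-chaperone Bag3 in the removal of misfolded proteins, was counted at low levels. Pvalb neurons held 7 and 18 UMIs, or 11.0 CPM (exact Poisson 95% interval 4.44 to 22.7) and 9.29 CPM (5.51 to 14.7). Sst and Vip neurons held none in either library. For Sst a count of 0 allows up to 3.77 and 2.09 CPM, taking 3 counts as the limit. For Vip it allows up to 24.3 and 16.7 CPM, above the Pvalb levels, so Vip cannot be set apart from Pvalb. Excitatory labels held 9 UMIs in all, of which L6 IT had 3 and 1. Outside neurons it reached 18.5 and 22.9 CPM in nuclei labelled VLMC and 18.6 and 15.3 CPM in astrocytes, 18.1 and 12.4 CPM in nuclei labelled SMC-Peri (4 and 2 UMIs), and 0 and 15.2 CPM in oligodendrocytes (0 and 3 UMIs). Empty barcodes held 2.07 and 2.17 CPM. Hspb8 fell under the filter on low counts, so these levels have no test, and Hspb8 was named by rule and not for this pattern.

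Microglia differed from neurons in about as many members upward as downward. Of the 45 members, 11 were called higher in microglia (24.4%, where 36.6% of all genes were) and 12 lower (26.7%, where 29% were), with a median log2 fold change of 0.11 against 0.16 for all genes. Type C DnaJ genes made up 8 of the 11 that were higher, but also 20 of the 45 members tested. Their share, 8 of 20, lay near the 36.6% of all genes. All 3 Hsp110 genes were called, with Hspa4 higher and Hspa4l and Hsph1 lower, while 3 of 6 Hsp70 genes and 1 of 3 Hsp90 genes were lower and none of either was higher.

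Higher in microglia were J proteins of the endosome, the ER membrane and the cytosol. Dnajb14 (ENSMUSG00000074212, chromosome 3, 137867675–137916557, plus strand), an ER membrane J protein, was at 114 and 123 CPM in microglia, against 16.4 to 60.9 CPM over the 18 neuronal sums. Its log2 fold change was 1.70 (SE 0.16, adjusted p = 2.08e-11). Dnajc7, a cytosolic J protein that binds both Hsp70 and Hsp90, was at 266 and 246 CPM, against 85.3 to 139 CPM in neurons, with a log2 fold change of 1.27 (SE 0.12). Dnajb6, which holds back aggregation of polyglutamine proteins, was at 171 and 156 CPM, against 33.3 to 105 CPM in neurons, with a log2 fold change of 1.27 (SE 0.14). Dnajc13, an endosomal J protein, was at 207 CPM in both libraries, against 75.7 to 150 CPM. None of these 4 overlapped between microglia and neurons, where 6 of the 60 members and 17.2% of all genes with at least 20 UMIs lay wholly higher, and their levels in empty barcodes, 168 and 184 CPM for Dnajc7 and 120 and 127 CPM for Dnajc13, lay below those in microglia as well. Dnajc3, Dnajc5 and Hspa4 were also higher, with log2 fold changes of 0.998, 0.92 and 0.68.

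Among members lower in microglia, the difference was largest for Dnajc6. It was at 45.3 and 28.0 CPM in microglia, against 198 to 509 CPM over the neuronal sums, a log2 fold change of −3.32 with SE 0.22 and adjusted p = 7.39e-15. Its level in empty barcodes was 265 and 230.5 CPM, and astrocytes had 18.6 and 19.6 CPM. The gene Gak, the auxilin found in most tissues and taken from the list of partners, was higher in microglia (log2 fold change 0.79, SE 0.15). Hspa4l, another Hsp110, was at 15.6 and 15.2 CPM against 35.1 to 99.1 CPM in neurons (log2 fold change −2.21, SE 0.23). Hsph1 was at 32.5 and 18.7 CPM (log2 fold change −2.09, SE 0.23), Dnajb5 at 10.4 and 8.83 CPM (−2.16, SE 0.23) and Dnaja4 at 4.01 and 2.74 CPM (−2.02, SE 0.30). Hsp90aa1, the inducible cytosolic Hsp90 (ENSMUSG00000021270, chromosome 12, 110690605–110702728, minus strand), was at 62.2 and 28.7 CPM in microglia and 92.9 to 306 CPM in neurons, a log2 fold change of −1.89 with SE 0.23 and adjusted p = 6.69e-09. Of the 60 members 6 lay wholly lower in microglia, Dnajc6, Hspa4l, Hsph1, Dnajb5, Dnaja4 and Hsp90aa1, as did 8.65% of all genes with at least 20 UMIs. The microglial level of these genes includes whatever free neuronal RNA the nuclei carried, and its part was not tested beyond the subtraction of the profile of empty barcodes, after which 11 members were lower. The calls of Dnajb2 and Dnajc24 were lost in 6 and 5 of 7 alternatives.

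**Figure D3:**
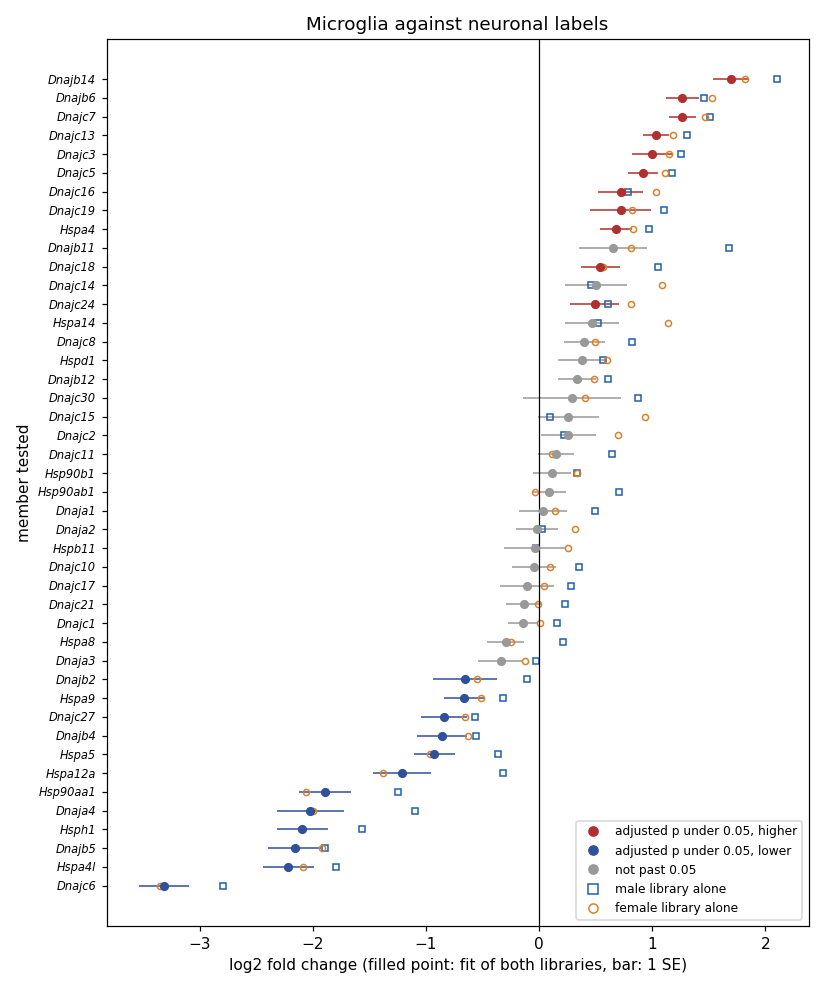
Log2 fold change of microglia against the neuronal labels (horizontal axis) for 44 of the 45 members tested, sorted. Filled points with bars are the fit of both libraries ± 1 SE, coloured where the adjusted p was under 0.05, and open squares and circles are the male and female library alone. Dnajc6 lies farthest to the left at −3.32 and Dnajb14 farthest to the right at 1.70. Hspa12b is not drawn, since it was at 0 in most of these sums and its fit has no usable error.

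Nuclei labelled Unknown numbered 225 (male) and 170 (female). Neuron markers summed to 8009 and 7180 CPM in them, against 12819 to 24061 CPM in the neuronal labels, and the layer V markers Bcl11b and Fezf2 to 356 and 335 CPM, all of it from Bcl11b, against 0 to 121 CPM in the neuronal labels. Those 2 markers summed to 64.9 and 48.3 CPM in L5 PT, below the 109.9 and 121 CPM of L6 CT, so they did not single out the L5 PT label. Their level of Atf3 was 4.25 and 5.05 CPM, against 14.3 to 171 CPM over the excitatory sums, and that of Ddit3, an ER stress factor, 23.4 and 6.94 CPM against 52.1 to 356 CPM. Slc17a7, an excitatory marker, had a mean of 180 CPM in Unknown nuclei and 24.1 to 58.1 CPM in the excitatory labels. Its mean in empty barcodes was 123 CPM. The part of these differences in the results on chaperones was not tested. The paper could not establish a cortical origin for its Unknown neuronal cluster. It is thus not known whether the comparison with excitatory labels is one among cortical neurons.

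Several general chaperones of the cytosol, the ER and mitochondria were lower in Unknown nuclei than in excitatory neurons. Of the 45 members, 11 were called lower (24.4%, where 15.6% of all genes were) and 6 higher (13.3%, where 19.6% were), and the median log2 fold change was −0.08 against 0.02 for all genes. Those lower included 3 of 6 Hsp70 genes, 2 of 3 Hsp110 genes, 2 of 3 Hsp90 genes and the chaperonin Hspd1, and 3 of the 31 DnaJ genes tested.

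Hspa5 (ENSMUSG00000026864, chromosome 2, 34771970–34777547, plus strand), the Hsp70 of the ER known as BiP, showed the largest difference among the members that were lower. Unknown nuclei had 23.4 and 18.9 CPM, a mean of 21.2 ± 3.16 CPM (SD, n = 2). Over the 12 excitatory sums the lowest value was 47.8, the median 115 and the highest 246 CPM, and empty barcodes held 87.0 and 64.1 CPM. No excitatory sum was as low as either Unknown library, and the log2 fold change came to −2.32 ± 0.25 (SE, adjusted p = 3.76e-09). Within the label, the deposited clusters 7 and 23 gave 23.4 and 16.6 CPM and 24.0 and 62.0 CPM, the latter from 1 and 5 UMIs.

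Some ER chaperone genes are known to carry a motif read by ER stress factors, the ER stress element (ERSE, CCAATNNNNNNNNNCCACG). It was searched on both strands in the 250 bases before and 50 bases after the start site of RefSeq genes on GRCm38.p6, where 58 of the 72 members had an entry. It was found in 39 of 32851 promoters (0.119%) and in those of 3 members, Hspa5, Hsp90b1 (at 2 places) and Dnajc3, which are shown because all 3 encode ER proteins and Hspa5 had the largest difference of the members that were lower. Capitals mark the motif, and each line is 5′ to 3′ on the strand of the gene.
Hspa5 (chr2:34772020-34772048, plus strand): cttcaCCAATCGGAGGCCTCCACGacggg
Hsp90b1 (chr10:86705608-86705686, minus strand): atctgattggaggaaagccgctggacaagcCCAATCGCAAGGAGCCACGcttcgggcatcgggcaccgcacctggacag
Hsp90b1 (chr10:86705528-86705556, minus strand): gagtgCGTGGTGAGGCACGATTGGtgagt
Dnajc3 (chr14:118937797-118937875, plus strand): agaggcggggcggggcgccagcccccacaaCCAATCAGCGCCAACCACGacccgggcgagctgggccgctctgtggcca

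Hsp90b1 was at 19.1 and 47.9 CPM in Unknown nuclei, against 42.9 to 153 CPM over the excitatory sums, so that the male value lay below them all and the female value did not. Its log2 fold change was −0.86 (SE 0.23, adjusted p = 0.00286). Dnajc3, an ER J protein that restrains the stress kinase PERK, was at 14.9 and 10.1 CPM in Unknown nuclei and 11.6 to 23.4 CPM in excitatory neurons, and was not called (log2 fold change −0.21, SE 0.30, adjusted p = 0.660). Dnajb9, another ER J protein, had 3 UMIs in Unknown nuclei and was not tested.

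The heat shock element that binds Hsf1 was searched as GAANNTTCNNGAA, which on both strands covers 3 alternating units, and it was found in 0.603% of all promoters and in those of 4 members, Dnajb6, Hspd1, Hspe1 and Hsph1. A match is a description of the letters and not a site of binding. In Hsph1 it began 15 and 36 bases after annotated start sites. Hspd1 and Hspe1 are transcribed head to head, and both read the same stretch, shown here on the strand of Hspd1 because Hspd1 was lower in Unknown nuclei.
Hspd1 (chr1:55088056-55088084, minus strand): gcggggccTTCCGGAAGGTTCtagaacgg
Hspd1 (chr1:55088051-55088079, minus strand): gccttccgGAAGGTTCTAGAAcggaccgt
The cyclic AMP response element TGACGTCA, to which Atf factors can bind, was found in 1.79% of all promoters and in that of 1 member, Dnajc27.

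Further members were lower in Unknown nuclei, in other compartments than the ER. Hsp90aa1 was at 64.9 and 50.5 CPM, against 92.9 to 306 CPM over the excitatory sums, a log2 fold change of −1.38 with SE 0.25 and adjusted p = 2.77e-05. Hspd1 was at 6.38 and 5.05 CPM, from 6 and 8 UMIs, against 9.74 to 27.3 CPM (log2 fold change −1.35, SE 0.38, adjusted p = 0.00546). In neither gene did the groups overlap, where 9 of the 60 members and 7.4% of all genes with at least 20 UMIs lay wholly lower in Unknown nuclei. Hspa9, the mitochondrial Hsp70, was at 39.3 and 25.9 CPM against 39.0 to 156 CPM (log2 fold change −1.19, SE 0.23), so its male value just reached the lowest excitatory one. Hspa4l was at 27.6 and 22.7 CPM against 35.1 to 96.6 CPM (−1.23, SE 0.26), Hsph1 at 56.4 and 76.9 CPM against 92.0 to 262 CPM (−0.94, SE 0.22), and Hspa8 at 21.3 and 19.5 CPM against 14.3 to 66.4 CPM (−0.77, SE 0.23). The call of Hspa8 was lost in 2 of 7 alternatives, with an adjusted p of up to 0.122. Dnajc30, a mitochondrial J protein, had 4 and 0 UMIs in Unknown nuclei, and its call was lost in 3 of 6 alternatives. Hsp90ab1 and Hspa4 were not called, with log2 fold changes of −0.04 (SE 0.19) and 0.04 (SE 0.18).

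Hspa12a (ENSMUSG00000025092, chromosome 19, 58795750–58943654, minus strand), an atypical and distant Hsp70, went the other way. It was at 116 and 132 CPM in Unknown nuclei, a mean of 124 ± 11.7 CPM (SD, n = 2), against 19.5 to 39.0 CPM over the excitatory sums and 8.11 to 28.4 CPM over the inhibitory sums. Every neuronal sum was thus under both Unknown libraries, and the log2 fold change against excitatory neurons was 2.42 (SE 0.20, adjusted p = 1.32e-11), with 2.42 and 2.44 in the libraries alone. Both clusters of the label had it, at 116 and 134.9 CPM in cluster 7 and at 119.9 and 86.7 CPM in cluster 23 (5 and 7 UMIs). Nuclei labelled VLMC had 84.2 and 113 CPM, those labelled SMC-Peri 95.2 and 49.4 CPM, and microglia 14.0 and 8.33 CPM.

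Dnajc1 (ENSMUSG00000026740, chromosome 2, 18195654–18392830, minus strand) was also highest in Unknown nuclei, at 517 and 475 CPM, above all excitatory sums (205 to 398 CPM), a log2 fold change of 0.95 with SE 0.13 and adjusted p = 2.47e-07. Hspb11, which is named as a small heat shock protein but is a part of the transport machinery of cilia, was at 19.1 and 17.7 CPM against 4.78 to 13.5 CPM, a log2 fold change of 1.28 with SE 0.33 and adjusted p = 0.00224. Its groups did not overlap, where 3 of the 60 members and 7.17% of all genes with at least 20 UMIs lay wholly higher, but empty barcodes held 18.6 and 16.3 CPM. Dnajc18, an ER membrane J protein, was at 58.5 and 52.3 CPM against 20.1 to 57.3 CPM (log2 fold change 0.90, SE 0.21, adjusted p = 0.00078). Empty barcodes held 41.4 and 70.7 CPM of Dnajc18, so the female Unknown value lay below them. The calls of Dnajb14 and Dnaja4 were lost in 1 and 6 of 7 alternatives.

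**Figure D4:**
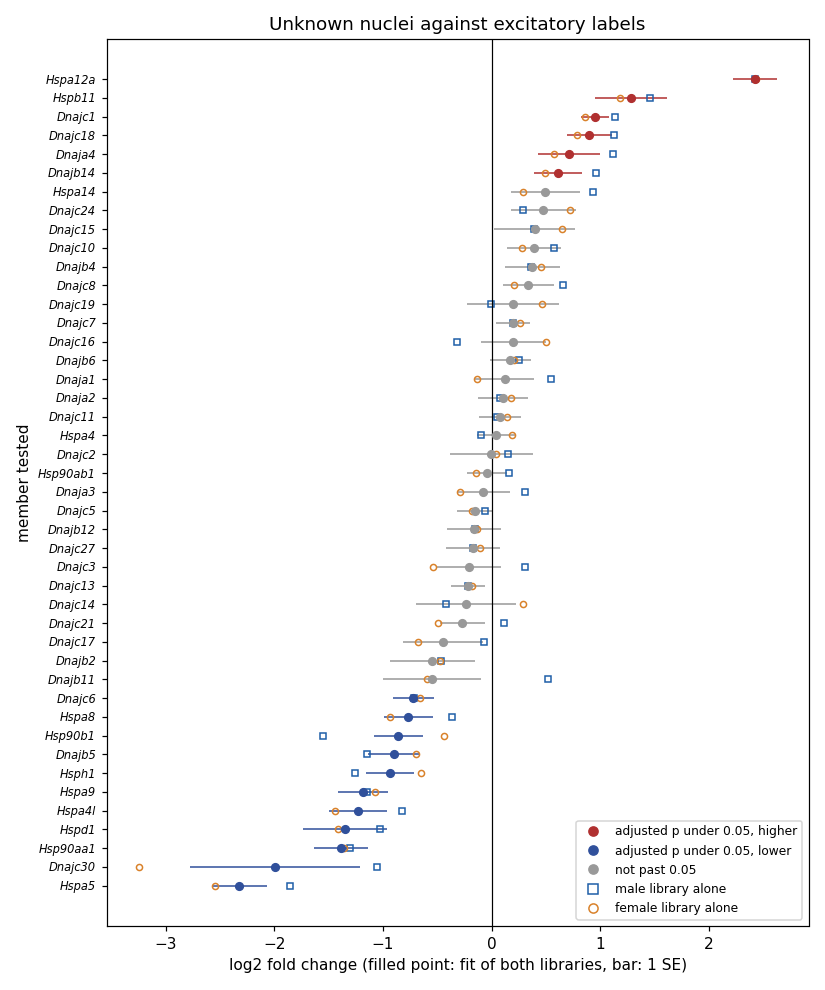
Log2 fold change of Unknown nuclei against the excitatory labels (horizontal axis) for 44 of the 45 members tested, sorted, drawn as for microglia. Hspa12a at 2.42 lies farthest to the right and Hspa5 at −2.32 farthest to the left, and the 11 members called lower hold Hsp70, Hsp90, Hsp110 and chaperonin genes. Hspa12b, at 0 in Unknown nuclei, is not drawn.

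**Figure D5:**
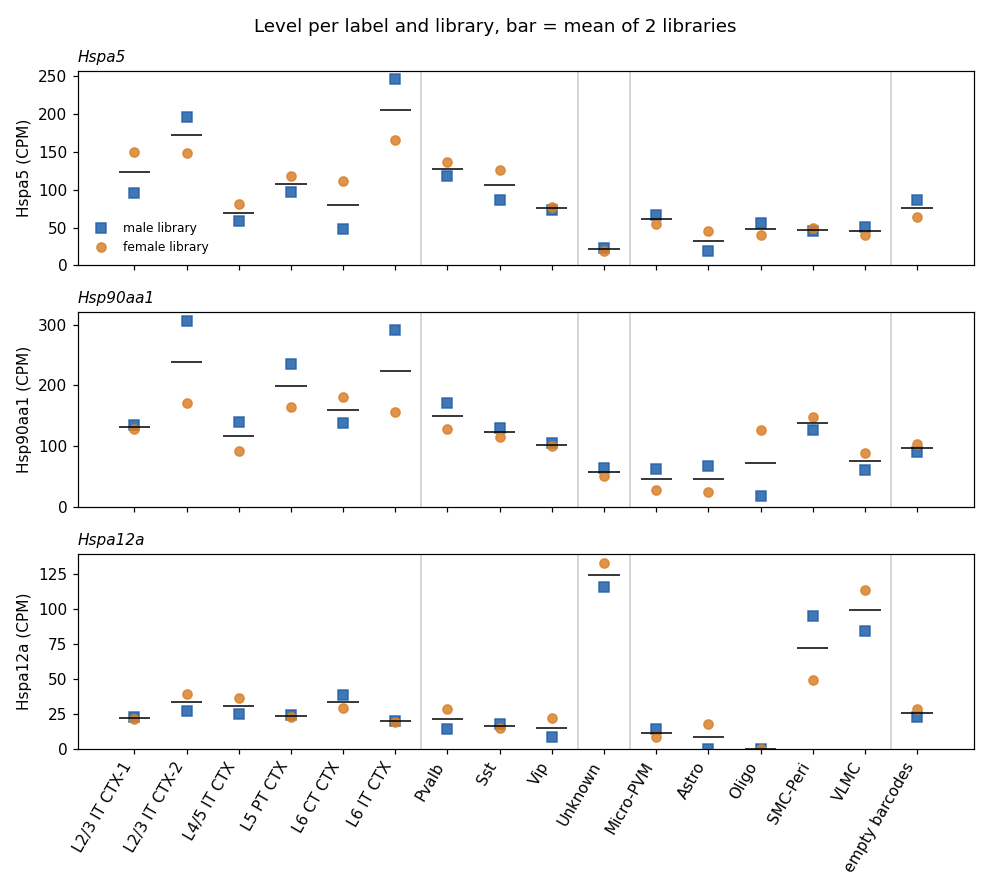
Levels of Hspa5, Hsp90aa1 and Hspa12a (vertical axes, CPM) by label, with squares for the male and circles for the female library and bars at their mean. In Unknown nuclei Hspa5 lies at 23.4 and 18.9 CPM and Hsp90aa1 at 64.9 and 50.5 CPM, below every neuronal label, while Hspa12a lies at 116 and 132 CPM, above every neuronal label.

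Some members were counted mainly in nuclei with vascular or glial labels, for which no comparison was planned. Hspa12b, an atypical Hsp70 known from endothelium, had 54 UMIs in all, of which 10 and 29 were in nuclei labelled VLMC (20.5 and 28.9 CPM) and 2 in the 5 endothelial nuclei of the male library. Over the neuronal labels it did not exceed 1.36 CPM. Dnajc3 was at 74.0 and 78.6 CPM in nuclei labelled VLMC and 58.9 and 80.3 CPM in those labelled SMC-Peri, against 11.0 to 32.5 CPM over the neuronal sums and 26.9 and 22.8 CPM in empty barcodes. Dnajb2, a J protein that directs clients to the proteasome, was highest in oligodendrocytes, at 166 and 66.1 CPM from 9 and 13 UMIs, against 5.56 to 40.2 CPM over the neuronal sums.

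Partners of the chaperones were read from a list of 41 genes, of which 34 were tested. Between L5 PT and L2/3 IT 1 was higher (Clpb, a mitochondrial disaggregase, log2 fold change 0.72, SE 0.18) and 0 lower, where 6.53% and 5.02% of all genes were. In Unknown nuclei 3 were higher and 3 lower than in excitatory neurons, where 19.6% and 15.6% of all genes were. Fkbp5, an Hsp90 co-chaperone induced by glucocorticoids, was at 135 and 119 CPM in Unknown nuclei against 21.8 to 54.2 CPM over the excitatory sums (log2 fold change 2.01, SE 0.23, adjusted p = 7.50e-09). It was also high in microglia, at 226 and 222 CPM (log2 fold change against neurons 2.71, SE 0.18), and in empty barcodes, at 70.4 and 114 CPM. Cryab, a small heat shock protein outside the naming rule, was at 0 UMIs in Unknown nuclei of both libraries, which allows up to 3.19 and 1.89 CPM, and at 0 to 21.9 CPM over the excitatory sums. In microglia 10 of the 34 partners were higher and 9 lower, where 36.6% and 29% of all genes were. Bag1 and Bag3, nucleotide exchange factors of Hsp70, were higher by 2.76 (SE 0.33) and 2.11 (SE 0.37) on the log2 scale. Bag1 was at 42.5 and 33.0 CPM in microglia and at 45.6 and 27.2 CPM in empty barcodes. Bag3 was at 16.8 and 21.6 CPM in microglia and at 10.4 and 17.4 CPM in empty barcodes.

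The male and female libraries were set side by side without a test, as there is 1 of each. Over the summed neuronal nuclei, 39 members had at least 10 CPM in both, and 23 of them were higher in the male library, while 69.6% of the 7771 genes at that level were. The median log2 ratio of male to female was 0.09 for members and 0.12 for all genes. Among these members it ran from −0.36 for Hspa5 (100.1 and 128 CPM) to 0.60 for Hspa9 (99.0 and 65.0 CPM). Sex and depth differed together between the libraries.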

How the data were processed

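Nuclei of 2 libraries in 1 group (mTBI) were analysed. With Cell Ranger the authors made UMI counts for each gene and barcode on an mm10 (GRCm38) pre-mRNA reference and deposited these counts without normalization for called and for all barcodes. The submitters' processing notes name Cell Ranger 3.1.0 and Seurat, while the article's methods and the file headers name other versions. The deposited table gives per nucleus the UMI total, number of genes, percent of mitochondrial UMIs, cluster and predicted label. Its totals equal those of the matrices in all 4003 male and 4168 female nuclei. Labels were used as deposited, and doublets were not removed. Rows of the reporter, 0.000481% and 0.000797% of UMIs, were left out. A deposited matrix of corrected values was not used, and 0 columns belonged to no sample.

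Neuronal labels with at least 50 nuclei and the non-neuronal and Unknown labels were summed per library, and 15 labels with at least 10 nuclei in each library (30 sums) entered 1 fit (edgeR 4.0.16, limma 3.58.1, R 4.3.3: TMM, filterByExpr, glmQLFit, glmQLFTest, Benjamini-Hochberg, 0.05), with 14 residual degrees of freedom. Sums of a library share a pool of animals, which pairs the labels, so library was a block. The correlation of deviations between labels ran from −0.05 to 0.40 over 105 pairs, with 71 over 0.1. The common dispersion was 0.0181. Values for a single library are log2 ratios after adding 0.5 CPM, with TMM factors estimated within that library, and have no test. The script was tested on simulated data. Intervals are exact Poisson at 95% and cover counting error only, and 3 counts were the limit of a count of 0.

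The alternatives were no replicate block, DESeq2 1.42.0, RLE factors, no filter, subtraction of 10% of the empty-barcode profile, the limits of 6000 genes and 5% mitochondrial UMIs, merged L2/3 IT labels, each library alone and, chosen after seeing the data, no neuronal nuclei with over 1000 CPM of microglia markers. Genes named are 25 fixed members (the inducible and constitutive chaperones and main J proteins) and, per comparison, up to 5 called members with the largest change in each direction. Others, such as Dnajc18, Hspb11 and Hspa12b, were chosen after their values were seen. The members and lists were chosen with earlier results of these data known. Positions are from GENCODE vM21 and promoters from RefSeq. Python 3.11.15, numpy 2.4.6, pandas 2.3.3, scipy 1.17.1 and matplotlib 3.10.9 were used. One partner gene is not reported here.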

Additional observations from a re-analysis of the deposited data

How the results depend on the processing

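No called member and no count turned its direction under the alternatives run. The count of members lower in L5 PT than in L2/3 IT, 1 in the test as reported, was 0 with no replicate block, without a filter on low counts, after subtraction of the empty-barcode profile, without neuronal nuclei over the microglia-marker limit and with merged L2/3 IT labels, and 2 with DESeq2 and with RLE factors. The count higher in microglia than in neurons, 11, was 17 without a filter. The fit without a filter also takes in members that the filter had left out, so these counts come from different sets of members. How much of the difference this makes was not tested. With no replicate block the calls of Dnaja4 in L5 PT, of Dnajb14, Dnajc30 and Dnaja4 in Unknown nuclei, and of Dnajb2 and Dnajc24 in microglia were lost, and the block changed no other call of a member named. In 1 library alone, counting members past 1 on the log2 scale with no test, L5 PT against L2/3 IT gave 1 to 2 higher and 1 to 2 lower, microglia against neurons 6 to 7 lower, and Unknown against excitatory neurons 2 to 5 higher and 6 to 8 lower. Variation over the neuronal labels has no such value. Leaving out neuronal nuclei with 2 or more microglia UMIs could not be fitted, since it removed 1788 of 2499 nuclei and left 1 sum empty. The 27 members under the filter on low counts, Hspa1a and Hspa1b among them, have no test, and 83 nuclei lay past the limits of the methods.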
